A study of Cricetulus griseus with 16 samples.

Results

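Circadian clock genes were described in heat-treated Chinese hamster ovary (CHO) cells. The 10 members are Arntl, Per1, Per2, Per3, Cry1, Cry2, Nr1d1, Nr1d2, Bhlhe40 and Dbp. They were taken by symbol from the 20824 genes counted, and all 10 were found, each as 1 row. The CHO line (ATCC CCL-61) was grown with serum in Ham's F-12K medium, and cultures were plated 24 h before treatment. RNA was sequenced from 4 cultures kept at 37 °C, 4 heated for 1 h at 40 °C, 4 heated for 6 h at 40 °C and 4 heated for 1 h at 42.5 °C. All groups share the line and the medium. The methods call the 4 cultures of a group biological repeats, and the labels letter them A to D.

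In mammalian cells the circadian clock is a loop of transcription factors that runs in nearly every cell. Arntl (also called Bmal1) pairs with Clock and switches on the genes of its own repressors, the Period (Per) and Cryptochrome (Cry) proteins, which then block the pair. In a second loop the nuclear receptors Nr1d1 and Nr1d2 (Rev-erb alpha and beta) repress Arntl. Bhlhe40 (Dec1) competes with the Arntl and Clock pair for its DNA element and also responds to many stresses, and Dbp is a transcription factor of the clock's output. Serum and temperature are known to set the phase of the clock in cultured cells. The methods describe no step as synchronising the clocks of different cells. Whether plating in medium with serum did so was not tested. A level here is therefore an average over cells whose phases are unknown. The collection time of the 37 °C cultures is not stated, and the cultures heated for 6 h and for 1 h differ in time as well as in heat. Heat duration and time since plating cannot be told apart in these groups. In RNA from whole cultures, fewer cells with a transcript and less transcript per cell also cannot be told apart.

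The libraries held between 10504192 and 14668365 counts. A floor of 3 counts corresponds to 0.205 to 0.286 CPM (counts scaled to the library total), and it covers counting error only. The study left out 1 control, and its printed counts match every library but 37 °C replicate D, which stood far from replicates A, B and C (chi-square per degree of freedom 41.8 to 49.4, against 2.55 to 8.02 for all other pairs of replicates). Values for 37 °C are therefore from replicates A, B and C, and replicate D is given separately. The heat shock genes Dnajb1, Hsph1 and Hspb1 had a higher mean in every heated group than at 37 °C, for Dnajb1 394 CPM at 42.5 °C for 1 h against 28.4 CPM. Of 6 mesenchymal genes, Vim, Col3a1 and Pdgfrb stood at 2231, 105 and 14.1 CPM at 37 °C. Col1a1 and Col1a2 were at 0.106 and 0.0477 CPM there, and Thy1 was at 0 in every group. Of 5 granulosa cell genes, Fshr, Cyp19a1 and Foxl2 were at 0. Amh and Inha had group means above 1 CPM, and the 5 summed to 3.55 to 8.63 CPM per library. Summed epithelial, haematopoietic and endothelial markers stayed at or under 4.14, 0.0969 and 0.396 CPM in any library. The epithelial sum lacks Krt8 and Krt18 and the haematopoietic sum lacks Cd68, which were not found by symbol.

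All 10 clock genes were above the floor in every library and passed the filter on low counts in all 6 comparisons. Dbp and Bhlhe40 had the fewest reads, 31 to 78 and 38 to 156 counts per library in the groups tested. Bhlhe40 was the member that differed most between heat treatments. It was 1.99-fold higher than at 37 °C after 1 h at 42.5 °C and 1.60-fold lower after 6 h at 40 °C. Per1 and Cry2 were lower after 1 h at 42.5 °C, and Dbp was higher after 6 h at 40 °C. After 1 h at 40 °C no clock gene passed the test. Levels below are CPM scaled by TMM (a scaling that evens out library composition). They are not divided by gene length, so they are compared between groups within a gene and not between genes.

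**Figure D1:**
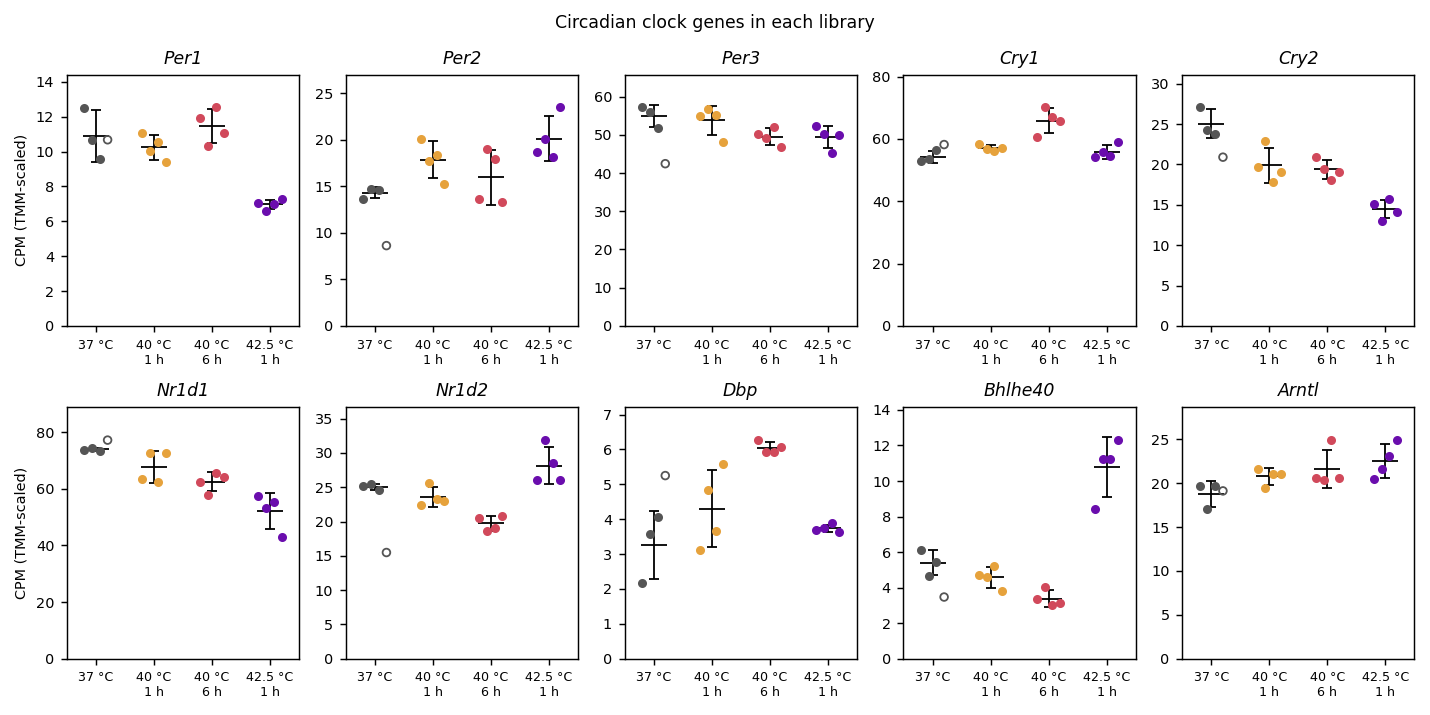
CPM (TMM-scaled, vertical axes from 0) of the 10 clock genes in each library, by treatment group. Points are libraries, bars are the mean ± SD, and the open circle is 37 °C replicate D, which enters no mean. The 4 Bhlhe40 points at 42.5 °C lie between 8.40 and 12.3 CPM, above every other library, and the 4 Per1 points lie between 6.61 and 7.25 CPM, below every other library.

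Arntl (ENSCGRG00001019562), the activator of the loop, stood at 19.6, 17.1 and 19.7 CPM in the 37 °C replicates A, B and C. After 1 h at 40 °C the 4 libraries held 21.6, 19.4, 21.0 and 21.0 CPM, after 6 h at 40 °C 20.7, 20.3, 24.9 and 20.6 CPM, and after 1 h at 42.5 °C 20.5, 21.6, 23.1 and 24.9 CPM. The group means ran in that order from 18.8 ± 1.49 CPM (SD, n = 3) to 22.5 ± 1.91 CPM (SD, n = 4), and each neighbouring pair of groups overlapped. The difference between 42.5 °C and 37 °C was 0.26 ± 0.09 (log2, SE, adjusted p = 0.0284 by edgeR), a 1.20-fold difference that lies under the 1.5-fold limit used for a call. Its differences at 40 °C did not pass the test.

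The 3 Period genes, which encode repressors that shuttle into the nucleus with the Cryptochromes, did not move together. Per1 (ENSCGRG00001019654) was at 12.5, 10.6 and 9.57 CPM at 37 °C, at 11.1, 10.1, 10.5 and 9.38 CPM after 1 h at 40 °C and at 11.9, 10.3, 12.5 and 11.1 CPM after 6 h at 40 °C. After 1 h at 42.5 °C it was at 7.04, 6.61, 6.98 and 7.25 CPM. These 4 libraries were below all others, and the 3 remaining groups overlapped. Per1 also had its smallest relative spread at 42.5 °C, with an SD of 3.85% of the mean, below the 11.4% that counting error alone predicts at this depth.

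Per2 (ENSCGRG00001006630) was at 13.6, 14.7 and 14.7 CPM at 37 °C. It stood at 20.1, 17.7, 18.4 and 15.3 CPM after 1 h at 40 °C, at 13.6, 19.0, 17.98 and 13.3 CPM after 6 h at 40 °C and at 18.7, 20.1, 18.1 and 23.5 CPM after 1 h at 42.5 °C. Both groups heated for 1 h lay above the 37 °C libraries, whereas the 6 h group split, with replicates A and D at the level of 37 °C and B and C above it. Per3 (ENSCGRG00001024380) was the steadiest Period gene, between 45.3 and 57.2 CPM in the 15 libraries, with group means of 54.9 ± 2.89 CPM at 37 °C (SD, n = 3) and 53.8 ± 3.88, 49.5 ± 2.19 and 49.4 ± 2.93 CPM (SD, n = 4 each) after 1 h at 40 °C, 6 h at 40 °C and 1 h at 42.5 °C.

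The Cryptochromes, the Period proteins' partners in repression, moved apart from each other. Cry1 (ENSCGRG00001001431) stood at 52.9, 53.4 and 56.3 CPM at 37 °C, at 58.4, 56.7, 56.1 and 56.9 CPM after 1 h at 40 °C and at 54.3, 55.6, 54.5 and 59.1 CPM after 1 h at 42.5 °C. These 3 groups overlapped, and the 6 h libraries at 40 °C lay above them all with 60.5, 70.1, 66.9 and 65.9 CPM. Cry2 (ENSCGRG00001020400) was highest at 37 °C with 27.1, 24.2 and 23.8 CPM. The groups at 40 °C were lower and overlapped each other, with 19.7, 22.9, 17.9 and 19.1 CPM after 1 h and 20.9, 19.5, 18.1 and 19.1 CPM after 6 h. The libraries at 42.5 °C were lower still, with 15.1, 13.0, 15.7 and 14.1 CPM, and overlapped no other group. In the RefSeq annotation of another assembly (CriGri-PICRH-1.0), Cry2 overlaps Mapk8ip1, a scaffold gene of JNK signalling. Mapk8ip1 itself differed from 37 °C by 0.00, 0.12 and 0.02 on the log2 scale after 1 h at 40 °C, 6 h at 40 °C and 1 h at 42.5 °C, and passed the test in no comparison with 37 °C. The strandedness of the counting is not given in the sources used here, so reads from the overlap cannot be told apart.

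The nuclear receptor genes of the second loop differed in direction when 42.5 °C was set against 40 °C. Nr1d1 (ENSCGRG00001009842) was at 73.6, 74.5 and 73.5 CPM at 37 °C, at 63.5, 72.8, 62.2 and 72.5 CPM after 1 h at 40 °C, at 62.5, 57.7, 65.7 and 64.0 CPM after 6 h at 40 °C and at 57.4, 53.2, 55.1 and 42.9 CPM after 1 h at 42.5 °C. All heated libraries lay below the controls, and the 42.5 °C libraries lay below both 40 °C groups, which overlapped each other. Thra, which lies beside Nr1d1 in the RefSeq annotation, differed from 37 °C by -0.14 (log2, adjusted p = 0.0226) at 42.5 °C. Nr1d2 (ENSCGRG00001007315) was at 25.2, 25.5 and 24.6 CPM at 37 °C and at 22.4, 25.6, 23.2 and 23.03 CPM after 1 h at 40 °C. It was lowest after 6 h at 40 °C with 20.6, 18.6, 19.0 and 20.7 CPM and highest after 1 h at 42.5 °C with 26.1, 31.9, 28.6 and 26.1 CPM, and neither of these groups overlapped another.

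Bhlhe40 (ENSCGRG00001015526), the repressor that competes for the clock's DNA element, was at 6.10, 4.67 and 5.43 CPM at 37 °C. It stood at 4.69, 4.61, 5.22 and 3.80 CPM after 1 h at 40 °C, at 3.35, 4.04, 2.997 and 3.12 CPM after 6 h at 40 °C and at 8.40, 11.2, 11.2 and 12.3 CPM after 1 h at 42.5 °C. The order of group means was 40 °C for 6 h (3.38 ± 0.465 CPM, SD, n = 4), 40 °C for 1 h (4.58 ± 0.586 CPM, n = 4), 37 °C (5.40 ± 0.719 CPM, n = 3) and 42.5 °C for 1 h (10.8 ± 1.68 CPM, n = 4). Each neighbouring pair below the 42.5 °C group overlapped. Counts of 38 to 51 in the 6 h libraries give a counting error of 15.5% per library.

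Dbp (ENSCGRG00001022543), the output factor, was at 2.18, 3.57 and 4.05 CPM at 37 °C and at 3.13, 4.84, 3.67 and 5.58 CPM after 1 h at 40 °C. It stood at 6.27, 5.94, 5.91 and 6.08 CPM after 6 h at 40 °C and at 3.70, 3.75, 3.88 and 3.63 CPM after 1 h at 42.5 °C. The 6 h libraries lay above all others, and the 3 remaining groups overlapped. Its spread was widest at 37 °C, where the SD was 29.9% of the mean against 15.4% from counting error.

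In replicate D at 37 °C, Per2 (8.63 CPM), Per3 (42.4 CPM), Cry2 (20.9 CPM), Nr1d2 (15.5 CPM) and Bhlhe40 (3.47 CPM) were below replicates A to C, Cry1 (58.2 CPM), Nr1d1 (77.1 CPM) and Dbp (5.25 CPM) were above them, and Per1 and Arntl lay within their range.

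Each heat treatment was compared with 37 °C to ask which genes respond to a given heat dose. A gene was called where its adjusted p in edgeR's quasi-likelihood test was under 0.05, adjusted over all genes tested, and its fold change was at least 1.5. The 3 comparisons share the same 3 control libraries, so their values are given side by side.

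After 1 h at 40 °C no clock gene was called, where 0.334% of all genes tested were. None of the 10 had an adjusted p under 0.05 (1.64% of all genes did), and DESeq2 also called 0. The share of all genes at an unadjusted p under 0.05 was not computed in any comparison. Of the members, 2 had such a p. Those 2 were Cry2, at -0.33 ± 0.09 (log2 fold change, SE, adjusted p = 0.0740), and Per2, at 0.32 ± 0.10 (adjusted p = 0.122). For 3 members (Per2, Cry2 and Nr1d1) the heated libraries did not overlap the controls, against 13.5% of all genes. The median size of the log2 fold change was 0.14 over the 10 members and 0.07 over all genes tested.

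After 6 h at 40 °C Dbp rose and Bhlhe40 fell. These were 2 of 10 clock genes, where 3.11% of all genes were called. Dbp was 1.87-fold higher, at 0.90 ± 0.18 (log2, SE, adjusted p = 0.00112), and all 4 heated libraries were above the 3 controls. Bhlhe40 was 1.60-fold lower, at -0.68 ± 0.16 (adjusted p = 0.00445), and all 4 heated libraries were below the controls. Both calls rest on the choice of controls. With replicate D added the values were 0.70 (adjusted p = 0.0616) for Dbp and -0.55 (adjusted p = 0.0911) for Bhlhe40, and without 37 °C replicate A Bhlhe40 stood at -0.57 (adjusted p = 0.0385), under the fold limit.

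Another 4 clock genes had an adjusted p under 0.05 at 40 °C for 6 h with folds under 1.5, so that 6 of 10 passed on the adjusted p alone, against 29.4% of all genes. Cry1 was at 0.28 ± 0.06 (log2, SE, adjusted p = 0.00226). Nr1d2 was at -0.35 ± 0.08 (adjusted p = 0.00245), Cry2 at -0.38 ± 0.08 (adjusted p = 0.00243) and Nr1d1 at -0.24 ± 0.06 (adjusted p = 0.00321). The heated libraries did not overlap the controls for 7 members, against 36.2% of all genes, and the seventh was Arntl at 0.20 ± 0.09 (adjusted p = 0.113). The members were 5 higher and 5 lower, with a median log2 fold change of -0.05 and a median size of 0.26, against a median size of 0.13 over all genes.

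After 1 h at 42.5 °C Bhlhe40 rose, and Per1 and Cry2 fell. These were 3 of 10 clock genes, where 7.51% of all genes were called. Bhlhe40 was at 0.99 ± 0.15 (log2, SE, adjusted p = 6.89e-05). Cry2 was 1.74-fold lower, at -0.80 ± 0.09 (adjusted p = 3.94e-06), and Per1 was 1.58-fold lower, at -0.66 ± 0.12 (adjusted p = 0.000388). In each of them the 4 heated libraries lay on the same side of the 3 controls. Without 37 °C replicate A, Per1 was at -0.55 (adjusted p = 0.00410), under the fold limit. Vamp2, the neighbour of Per1 in the RefSeq annotation, was itself at -0.44 (adjusted p = 0.00376), and its part in the Per1 count was not tested.

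Per2 (0.49 ± 0.10, adjusted p = 0.00106), Nr1d1 (-0.51 ± 0.08, adjusted p = 6.44e-05), Arntl (0.26 ± 0.09) and Per3 (-0.16 ± 0.06, adjusted p = 0.0387) passed on the adjusted p with folds of 1.40, 1.43, 1.20 and 1.12. In all, 7 of 10 clock genes had an adjusted p under 0.05, against 43.1% of all genes, and 7 did not overlap the controls, against 46% of all genes. Nr1d2 was the non-overlapping gene that missed the adjusted p, at 0.16 ± 0.08 (adjusted p = 0.126). With replicate D added Per2 passed the fold limit as well, at 0.64 (adjusted p = 0.0287). Cry1 was at 0.04 ± 0.05 and Dbp at 0.21 ± 0.20, and neither passed. The median log2 fold change of the members was 0.10 and its median size 0.37, against a median size of 0.16 over all genes.

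**Figure D2:**
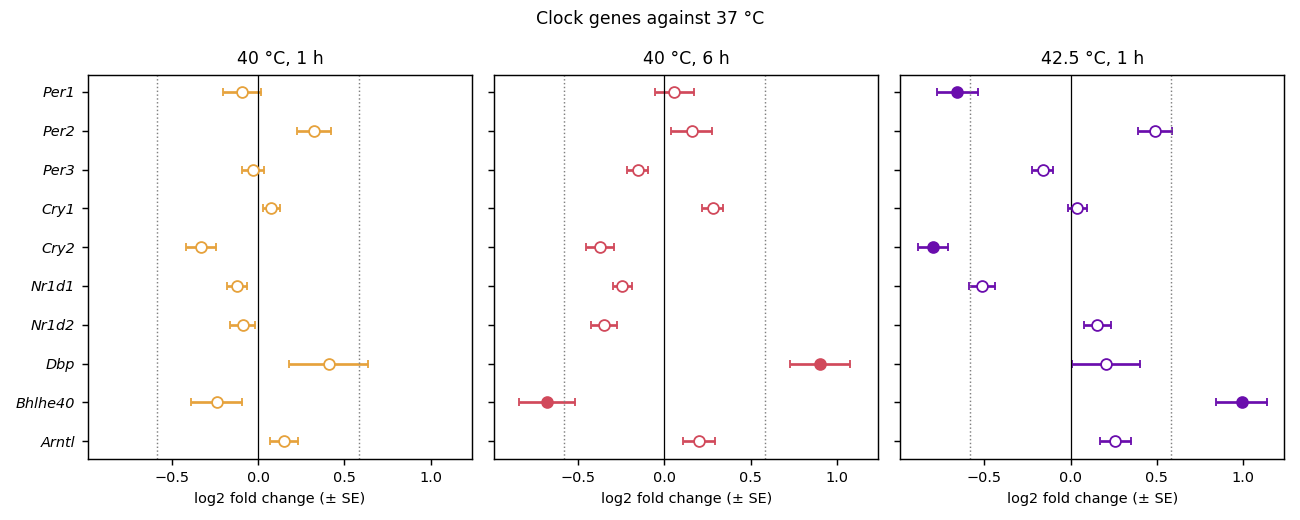
Log2 fold change (± SE, edgeR) of each clock gene against 37 °C replicates A to C, in panels for 1 h at 40 °C, 6 h at 40 °C and 1 h at 42.5 °C. Filled points are called, and dotted lines mark a fold change of 1.5 either way. Bhlhe40 lies at -0.24, -0.68 and 0.99 in the 3 panels, Dbp at 0.41, 0.90 and 0.21, and Per1 at -0.09, 0.06 and -0.66.

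The heated groups were also compared with each other directly, with 4 libraries on each side and no control. Duration at 40 °C, 6 h against 1 h, gave 0 called clock genes (1.28% of all genes were called). With DESeq2 the number was also 0, and 4 members had an unadjusted p under 0.05. On the adjusted p alone 3 passed, against 18.5% of all genes. Dbp was higher after 6 h by 0.50 ± 0.16 (log2, SE, adjusted p = 0.0382), Cry1 by 0.21 ± 0.05 (adjusted p = 0.0135), and Nr1d2 was at -0.26 ± 0.08 (adjusted p = 0.0259). Bhlhe40 was at -0.44 ± 0.15 (adjusted p = 0.0552). Without 40 °C 1 h replicate D, Dbp reached 0.65 and was called.

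Temperature at 1 h, 42.5 °C against 40 °C, gave 1 called clock gene, where 5.27% of all genes were called. It was Bhlhe40, 2.35-fold higher at 42.5 °C (1.23 ± 0.14, log2, SE, adjusted p = 6.73e-06). On the adjusted p alone 5 members passed, against 36.1% of all genes. Per1 was at -0.56 ± 0.10 (adjusted p = 0.000544), a 1.48-fold difference just under the limit, and without 40 °C 1 h replicate D it was called at -0.60. Cry2 was at -0.47 ± 0.09 (adjusted p = 0.00134), Nr1d1 at -0.39 ± 0.08 (adjusted p = 0.00158) and Nr1d2 at 0.25 ± 0.08 (adjusted p = 0.0229).

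The contrast of 42.5 °C for 1 h with 40 °C for 6 h held the largest differences of Bhlhe40 and Per1 among the 6 comparisons. Bhlhe40 was 3.18-fold higher at 42.5 °C (1.67 ± 0.15, log2, SE, adjusted p = 1.59e-07), Per1 was 1.64-fold lower (-0.72 ± 0.11, adjusted p = 3.99e-05) and Dbp was 1.62-fold lower (-0.70 ± 0.13, adjusted p = 0.000285). These 3 of 10 were called, where 8.25% of all genes were. On the adjusted p alone 8 passed, against 47% of all genes. They include Nr1d2 at 0.50 ± 0.08 (adjusted p = 9.76e-05, 1.42-fold), Cry2 at -0.43 ± 0.09 (adjusted p = 0.000769), Nr1d1 at -0.27 ± 0.08 (adjusted p = 0.00791), Cry1 at -0.24 ± 0.06 (adjusted p = 0.00211) and Per2 at 0.33 ± 0.12 (adjusted p = 0.0306). Per3 (-0.01) and Arntl (0.05) did not pass.

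**Figure D3:**
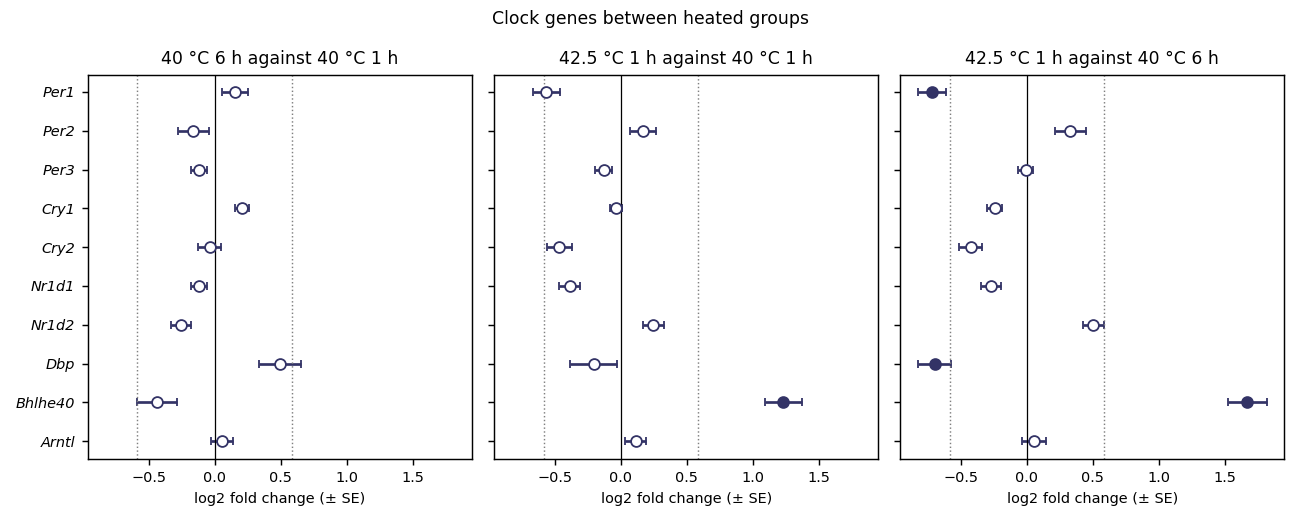
Log2 fold change (± SE, edgeR) of each clock gene between heated groups: 6 h against 1 h at 40 °C, 42.5 °C against 40 °C at 1 h, and 1 h at 42.5 °C against 6 h at 40 °C. Filled points are called and dotted lines mark a 1.5-fold change. Bhlhe40 lies at -0.44, 1.23 and 1.67, and no point is filled in the panel of 6 h against 1 h.

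Ratios of paralogs were taken within each library, since a ratio of 2 genes in 1 library does not depend on the scaling between libraries. The mean log2 ratio of Per1 to Per2 counts was -0.40 ± 0.25 at 37 °C (SD, n = 3), -0.79 ± 0.07 after 1 h at 40 °C, -0.46 ± 0.31 after 6 h at 40 °C and -1.52 ± 0.15 after 1 h at 42.5 °C (SD, n = 4 each). The ratio of Nr1d1 to Nr1d2 was 1.56 ± 0.02, 1.52 ± 0.10, 1.66 ± 0.09 and 0.88 ± 0.20 in the same order. For both pairs the 4 libraries at 42.5 °C lay below all others. The ratio of Bhlhe40 to Bhlhe41, its close relative Dec2, was -2.22 ± 0.15, -2.36 ± 0.32, -2.91 ± 0.29 and -0.92 ± 0.37, and here the 42.5 °C libraries lay above all others. Cry1 to Cry2 went from 1.12 ± 0.14 at 37 °C to 1.52 ± 0.15, 1.76 ± 0.16 and 1.95 ± 0.15, and every heated library was above control replicates A to C.

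In exact two-sided permutation tests between heated groups, all 4 ratios differed between 42.5 °C and 40 °C for 1 h (p = 0.0286, the smallest that 4 against 4 allows, and 0.0490 after Benjamini-Hochberg adjustment over 12 tests). Against 40 °C for 6 h the ratios of the Per, Nr1d and Bhlhe pairs gave the same p, and Cry1 to Cry2 gave p = 0.2 by the exact test. The 6 h and 1 h groups at 40 °C gave exact p values of 0.0857 to 0.143. Against 37 °C, 3 libraries on 1 side allow no p under 0.0571, and 9 of 12 such tests gave that value. In replicate D at 37 °C the log2 ratio of Nr1d1 to Nr1d2 was 2.31 and that of Per1 to Per2 was 0.31, both above every other library, while that of Cry1 to Cry2 was 1.47, above replicate B at 40 °C for 1 h (1.31).

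**Figure D4:**
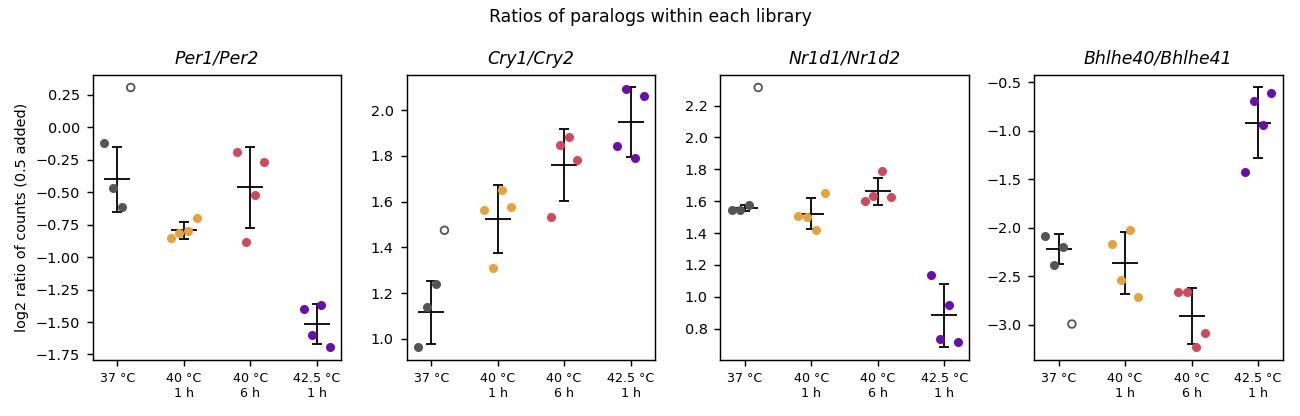
Log2 ratio of counts (0.5 added to each count) of Per1 to Per2, Cry1 to Cry2, Nr1d1 to Nr1d2 and Bhlhe40 to Bhlhe41 in each library. Bars are the mean ± SD without the open circle, which is 37 °C replicate D. At 42.5 °C the Per1 to Per2 ratio lies between -1.69 and -1.37 and the Bhlhe40 to Bhlhe41 ratio between -1.43 and -0.61, apart from all other points.

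The genes whose levels ran most like those of the 4 clock genes called against 37 °C were looked up by Pearson's r of log2 CPM over the 15 libraries, among 9465 genes. These are descriptions over libraries of 4 groups, which share the group differences. Closest to Bhlhe40 were Klf5, a Krüppel-like transcription factor (r = 0.979), the integrin subunit Itgb1 (r = 0.962) and Gorab (r = 0.962). Closest to Per1 were Pkd1 (r = 0.954), Plekhm1 (r = 0.954) and Nbeal2 (r = 0.951), which moved to ranks 871, 368 and 668 when 37 °C replicate D was included. Closest to Cry2 were Imp3 (r = 0.947), Plpp7 (r = 0.942) and Arhgap22 (r = 0.940), and closest to Dbp were 3110009E18Rik (r = 0.900), Fmo4 (r = 0.879) and Ccdc93 (r = 0.868), of which Ccdc93 moved to rank 284 with replicate D. Among the clock genes themselves r was 0.85 for Cry2 with Nr1d1, 0.84 for Nr1d2 with Bhlhe40 and -0.86 for Per1 with Bhlhe40.

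The other genes of the clock pathway were taken from 6 lists of 69 genes, of which 68 were found and 61 had enough reads to be tested. The partners and close relatives of the core loop are 11 genes. Of these Rora and Hlf had no count in any of the 15 libraries, which allows up to 0.205 to 0.286 CPM, and Npas2, the substitute for Clock, had 0 to 2 counts. Clock itself, the partner of Arntl, stood at 59.8 ± 1.70 CPM at 37 °C (SD, n = 3) and at 59.1 ± 3.90, 62.7 ± 2.13 and 63.7 ± 3.94 CPM (SD, n = 4 each) after 1 h at 40 °C, 6 h at 40 °C and 1 h at 42.5 °C. Its log2 fold changes were -0.02, 0.07 and 0.08, and none passed the test.

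After 1 h at 40 °C 0 of the 61 were called by edgeR, where 0.334% of all genes were, and DESeq2 also called 0. An unadjusted p under 0.05 was found for 11, and the share of all genes at that p was not computed. After 6 h at 40 °C 2 fell, where 3.11% of all genes were called. Dhx9, an RNA helicase found in clock repressor complexes, went from 647 ± 36.0 CPM (SD, n = 3) to 374 ± 31.7 CPM (SD, n = 4), at -0.79 ± 0.06 (log2, SE, adjusted p = 1.56e-07). Arntl2, the close relative of Arntl, was at -0.86 ± 0.28 (adjusted p = 0.0257) on 9 to 28 counts, and lost its call with DESeq2 (adjusted p = 0.109), with all 4 controls (adjusted p = 0.0822) and without 37 °C replicate B, 37 °C replicate C or 40 °C 6 h replicate B.

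After 1 h at 42.5 °C 3 of the 61 rose and none fell, a smaller share than the 7.51% called among all genes. Crebbp, a histone acetyltransferase that serves as a coactivator of the Arntl and Clock pair, went from 21.2 ± 0.764 CPM (SD, n = 3) to 38.0 ± 4.02 CPM (SD, n = 4), at 0.83 ± 0.08 (log2, SE, adjusted p = 1.71e-06). Nfil3, a repressor that binds the same DNA element as Dbp, went from 4.47 ± 0.886 to 8.35 ± 1.92 CPM, at 0.91 ± 0.19 (adjusted p = 0.00108). Rorb, a nuclear receptor that opposes Nr1d1, was at 0.66 ± 0.21 (adjusted p = 0.0192) on 13 to 29 counts, and missed the threshold with DESeq2 (adjusted p = 0.133), in 1 fit over all groups (adjusted p = 0.0679) and without 37 °C replicate C. Bhlhe41 was at -0.32 ± 0.08 (adjusted p = 0.00694), under the fold limit and opposite in sign to Bhlhe40.

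Between heated groups Dhx9 and Arntl2 were lower after 6 h than after 1 h at 40 °C (-0.68 and -0.88, log2), and Crebbp was higher at 42.5 °C than at 40 °C for 1 h (0.82). Against 40 °C for 6 h, the 42.5 °C group was higher in Rorb (1.09), Dhx9 (0.84), Arntl2 (0.80) and Crebbp (0.80). The Arntl2 calls had adjusted p values of 0.0202 for 6 h against 1 h and 0.0139 for 42.5 °C against 6 h, and with DESeq2 these were 0.0665 and 0.0815. The former call was also lost without 40 °C 1 h replicate D or 40 °C 6 h replicate B, and the latter without 42.5 °C replicate B. On the adjusted p alone 0, 15 and 31 of the 61 passed in the 3 comparisons with 37 °C, against 1.64%, 29.4% and 43.1% of all genes. The median log2 fold changes over the 61 were 0.02, -0.03 and 0.05. None of the 11 kinases and phosphatases of clock proteins, the 7 ubiquitin ligases and proteases, the 11 genes of resetting signals or the 10 clock output genes tested was called in any of the 6 comparisons. Of all genes, 0.334% to 8.25% were called in these comparisons. At 42.5 °C against 37 °C, 9, 5, 7 and 2 of them had an unadjusted p under 0.05 in the order of these lists, and the share of all genes at that p was not computed.

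**Figure D5:**
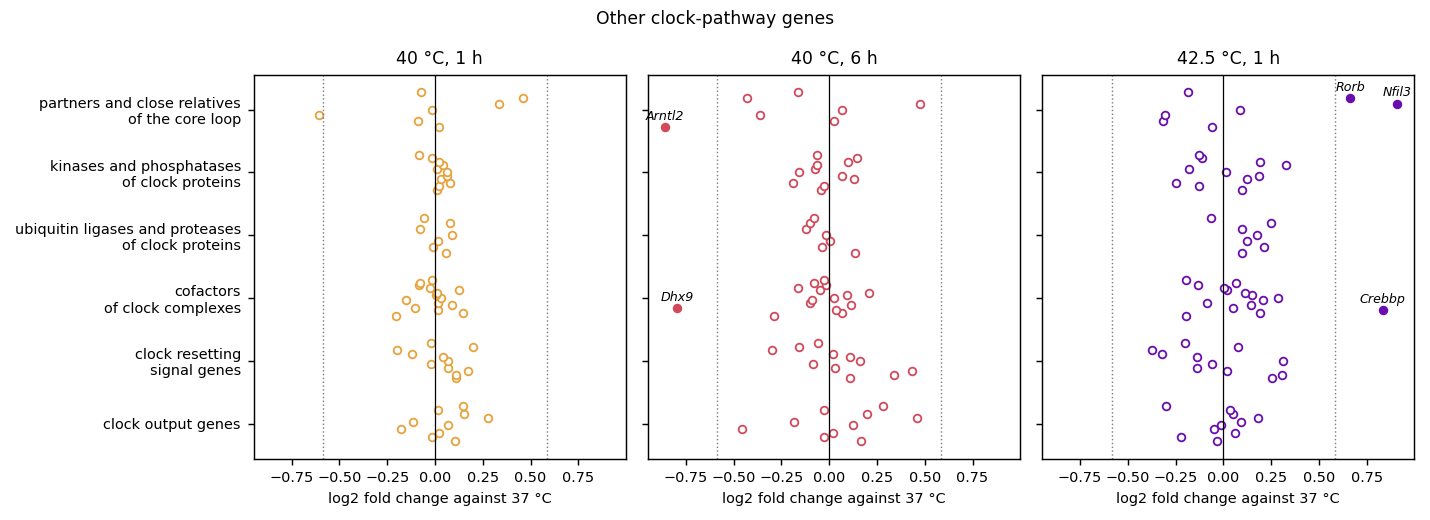
Log2 fold change against 37 °C replicates A to C (edgeR) of the 61 other clock-pathway genes tested, in rows by list, for the 3 heat treatments. Filled, named points are called and dotted lines mark a 1.5-fold change. Arntl2 (-0.86) and Dhx9 (-0.79) are filled at 40 °C for 6 h, Rorb (0.66), Nfil3 (0.91) and Crebbp (0.83) at 42.5 °C, and no point at 40 °C for 1 h.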

How the data were processed

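CHO cell RNA (TruSeq kit, NextSeq) was trimmed, mapped to CHOK1GS_HDv1 and counted by the authors with CLC Genomics Workbench. They deposited whole-number read counts per gene, not normalized, with 4423 of 20824 genes given by identifier only. Annotation release, strandedness and the handling of multiply mapped reads are not given in the sources used here. Total counts were 10504192 to 14668365 per library.

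Each comparison was tested in edgeR 4.0.16 under R 4.3.3 (quasi-likelihood test, TMM, filterByExpr defaults, libraries of the 2 groups, Benjamini-Hochberg over all genes tested), and a call needed both a fold of 1.5 or more and an adjusted p under 0.05. SE was the log2 fold change divided by the square root of F. Likeness used log2 CPM with a prior count of 2, and paralog ratios added 0.5 to each count. On simulated data the test recovered 199 to 200 of 200 changed genes with 0 to 2 false calls. Recovery was counted over all 200 genes together. Recovery at the folds and read numbers of the called clock genes was not tested. The simulation therefore does not show how often a change near the 1.5-fold limit would be found. All 10 clock genes are named, and of the other clock-pathway genes those called at least once, plus Clock, Bhlhe41 and genes without reads. The members and lists were chosen with earlier results of these data known. Sirt1, of the 69 listed genes, was not found by symbol. RefSeq (CriGri-PICRH-1.0, another build) was used by symbol for neighbouring genes only. The alternatives were DESeq2 1.42.0 (Wald test, or its size factors), no filter, at least 10 counts in every library, all 4 controls, a block by replicate letter, 1 fit over all groups, glmTreat (limit 1.5-fold), a call without the fold limit, and every library omitted once. The pairing by letter was checked by correlating deviations from group means. Same-letter pairs had a mean r of 0.01 to 0.13, and in no comparison was every pair above 0.1.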

Additional observations from a re-analysis of the deposited data

Results flagged for a closer look

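Of the 40 groups of 4 libraries examined (10 genes in 4 groups, with 37 °C replicate D included), 2 held a library set far from the other 3 by Dixon's test, and chance gives about 1 in 20. These were Nr1d2 in 37 °C replicate D (15.5 CPM) and Arntl in replicate C at 40 °C for 6 h (24.9 CPM).

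For 3 clock genes a difference between heat treatments met both limits of a call, the adjusted p and the fold. Other members passed on the adjusted p alone, as given above. Bhlhe40 was higher at 42.5 °C for 1 h than at 40 °C for 1 h (log2 difference 1.23) and than at 40 °C for 6 h (1.67). Per1 (-0.72) and Dbp (-0.70) were lower at 42.5 °C than at 40 °C for 6 h. The adjusted p values from edgeR were 6.73e-06, 1.59e-07, 3.99e-05 and 0.000285 in this order.

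In 37 °C replicate D, which enters no comparison, 3 clock genes lay above the other 37 °C libraries. Cry1 was at 58.2 CPM (highest of A to C 56.3), Nr1d1 at 77.1 CPM (74.5) and Dbp at 5.25 CPM (4.05).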

How the results depend on the processing

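Of 900 recomputed values (60 log2 fold changes of clock genes under 15 alternatives each), 875 kept their direction and their side of the threshold. Calls were lost 11 times and gained 3 times, and 11 values of 8 fold changes changed sign, all of them for fold changes that had not been called. Against 37 °C, clock genes called at 40 °C for 6 h (2 as reported) numbered 6 on the adjusted p alone, 0 with glmTreat, 0 with all 4 controls and 1 to 2 with a library left out (1 without 37 °C replicate A), and at 42.5 °C (3) they numbered 7 and 0 by the first pair of alternatives and 2 to 3 with a library left out. For 6 h against 1 h at 40 °C (0) they were 3 on the adjusted p alone and 0 to 1 with a library left out (1 without 40 °C 1 h replicate D), for 42.5 °C against 40 °C for 1 h (1) 5 and 1 to 2 (2 without the same library), and for 42.5 °C against 40 °C for 6 h (3) 8 on the adjusted p alone and 1, Bhlhe40, with glmTreat. glmTreat asks for a fold beyond 1.5 and is stricter by construction. The other causes were not tested.

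Other clock-pathway genes called at 40 °C for 6 h against 37 °C (2) were 15 on the adjusted p alone, 1 with DESeq2, 1 with at least 10 counts, 0 with glmTreat, 1 with all 4 controls and 1 to 2 with a library left out (1 without 37 °C replicate C or 40 °C 6 h replicate B). At 42.5 °C (3) they were 31 on the adjusted p alone and 1 with glmTreat. For 6 h against 1 h at 40 °C (2) they were 12, then 1 with DESeq2, 1 with at least 10 counts, 0 with glmTreat and 1 to 3 with a library left out (1 without 40 °C 1 h replicate D or 40 °C 6 h replicate B). For 42.5 °C against 40 °C for 1 h (1) they were 23, 0 with glmTreat and 1 to 2 with a library left out (2 without replicate A or C at 40 °C for 1 h or replicate C at 42.5 °C), and against 40 °C for 6 h (4) 31, 2 with at least 10 counts and 1 with glmTreat.

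The values that changed sign were small. In the comparison of 1 h at 40 °C with 37 °C they belong to Per3 (0.017 with the replicate block, 0.052 with all 4 controls, -0.073 to 0.015 with a library left out), Per1 (-0.17 to 0.019 with a library left out), Nr1d2 (0.051 with all 4 controls) and Clock (0.015 with the replicate block, 0.22 with all 4 controls and -0.045 to 0.013 with a library left out). With a library left out, Per1 at 40 °C for 6 h ranged from -0.019 to 0.17, Dbp at 42.5 °C from -0.033 to 0.37, Cry2 for 6 h against 1 h at 40 °C from -0.084 to 0.035, Arntl in the same comparison from -0.020 to 0.087, and Per3 at 42.5 °C against 40 °C for 6 h from -0.037 to 0.027. With all 4 controls the difference of the Nr1d1 to Nr1d2 log2 ratio at 40 °C for 6 h was -0.085 in place of 0.10.

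The check by correlation cannot settle whether the letters pair the cultures. For 40 °C for 1 h against 37 °C, same-letter pairs had an r of 0.074 to 0.17, against a mean of -0.045 for other letters. A fit with the replicate block changed 0 of the 60 clock gene calls. On the adjusted p alone it passed 3 clock genes in place of 0 at 40 °C for 1 h against 37 °C, with adjusted p values of 0.0108 for Per2, 0.0261 for Cry2 and 0.0489 for Nr1d1, and the number in each other comparison was that without the block. Over all genes, 48 were called at 40 °C for 1 h with the block and 35 without it. The share of all genes passing on the adjusted p alone with the block was not computed. Dbp and Bhlhe40 rest on the fewest reads, with a counting error of 9.14% to 15.6% per library. With 3 libraries at 37 °C, 1 control can decide a call near the 1.5-fold limit.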
